A study of Mus musculus with 6 samples.

Results

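The genes described here are 36 mouse genes of the ATF4 amino acid response, among them 15 aminoacyl-tRNA synthetases, in small intestine after deletion of Fitm2. They were taken from a fixed list of symbols, current or older, and each was read from its brightest probe set among those annotated to that gene alone. Of the 36 genes, 35 had such a probe set and 33 passed the filter on dim probe sets, out of 18193 named genes on the array and 13042 genes that passed. Pycr1, a proline synthesis enzyme, was not analysed here. Slc7a11 and Fgf21 lay below the filter, a mean intensity of 38.9, on all 6 arrays.

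Intestines came from KO mice, labelled ROSA26CreERT2 L/L, and from L/L mice, which have the same L/L alleles and no Cre label. L/L is not spelled out in the labels and usually denotes loxP-flanked alleles, here of Fitm2 (FIT2), an endoplasmic reticulum protein of lipid droplet formation. CreERT2 is a recombinase that tamoxifen activates, and ROSA26 is a locus active in most cell types, so this driver is not specific to the epithelium. Only KO mice have the Cre label, so activated CreERT2 and the deletion cannot be told apart in any difference below. All mice, KO and L/L alike, were given intraperitoneal tamoxifen on days 1, 2 and 3 (100 µg per g), and intestines were collected whole on day 2, 3 or 5. Mice killed on day 2 cannot have had the dose of day 3, so the number of doses differs between days in both genotypes. The age and background strain of the mice are not given in the labels. RNA was pooled from 7, 6 and 7 KO mice on days 2, 3 and 5, and from 6, 6 and 8 L/L mice, and each pool was hybridised to 1 Affymetrix array. No genotype therefore had a replicate within a day, and the number of arrays limits the precision of every value below. Because whole tissue was used, fewer cells of a type and less RNA per cell cannot be told apart.

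ATF4 is the transcription factor at the end of the integrated stress response. When amino acids run short, uncharged tRNAs activate the kinase GCN2, which phosphorylates the initiation factor eIF2. General translation then declines while translation of the Atf4 messenger increases, so ATF4 activity is set largely at the protein level. ATF4 binds composite C/EBP-ATF elements and raises genes for amino acid synthesis and uptake, one-carbon metabolism, tRNA charging and stress signalling. The intestinal epithelium takes up dietary amino acids and also consumes much of them.

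The C/EBP-ATF element is shown because it is a sequence through which ATF4 is known to act. The genes were listed as ATF4 response genes, so their share with the element does not test whether ATF4 acts on them. It was searched for as TGATGNAA on either strand in promoter windows of RefSeq genes (assembly GRCm38.p6), from 250 bases before the start of the gene to 50 bases after it. Of the 36 genes, 27 had a window and 13 of these held the motif, or 48.1%. The share was 4.51% of the 27025 genes with a window and 2.78% of the 10474 of them that were tested. With the stricter letters TGATGCAA it was 10 of the 27 genes, or 37.0%, against 1.03% of all genes with a window. The stretches below lie upstream of or at the start of 7 tested genes, each on the strand of its gene, with the motif in capitals in either orientation.
Vldlr, chr19:27216804-27216843, plus strand, motif from position -200: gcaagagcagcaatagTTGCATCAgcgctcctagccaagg
Nupr1, chr7:126625557-126625596, minus strand, motif from position -110: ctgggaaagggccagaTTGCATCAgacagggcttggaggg
Chac1, chr2:119351033-119351072, plus strand, motif from position -193: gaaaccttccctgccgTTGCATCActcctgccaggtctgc
Asns, chr6:7693209-7693248, minus strand, motif from position -23: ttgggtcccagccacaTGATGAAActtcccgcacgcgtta
Aars, chr8:111033714-111033753, plus strand, motif from position -112: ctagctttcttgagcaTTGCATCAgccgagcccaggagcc
Gars, chr6:55037955-55037994, plus strand, motif from position -30: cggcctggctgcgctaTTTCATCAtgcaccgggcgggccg
Tars, chr15:11399650-11399689, minus strand, motif from position -15: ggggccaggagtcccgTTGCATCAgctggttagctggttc
Vldlr, Nupr1, Chac1, Aars and Tars share the same 8 letters, while Asns and Gars differ from them at the N of the motif. The other 6 windows with a match were those of Iars, Yars and Trib3, where it lay after the start of the gene, and of Fgf21, Slc7a11 and Pycr1, which were not tested. These matches describe the letters of the windows only.

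The gene that was deleted was read first. Fitm2 had intensities of 123, 127 and 119.6 on days 2, 3 and 5 in KO intestine, against 193, 224 and 211 in L/L intestine. It was lower in KO on every day, by a mean of -0.76 on the log2 scale (SD 0.10 over 3 days), with an adjusted p of 0.125 by limma. Where its probes lie relative to the deleted part is not stated, so this reading alone does not measure the extent of deletion. The 6 arrays had median intensities of 57.7 to 59.7 and correlated at 0.978 to 0.997 over all genes on the log2 scale. Defining enterocyte genes were bright, with mean intensities of 30720 for Apoa1, 23237 for Fabp1 and 14155 for Vil1, as the tissue label states. The summed intensity of 10 enterocyte markers was 161695 to 168538 in KO and 159395 to 167147 in L/L intestine.

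Of the 33 tested genes, most stood slightly higher in KO intestine, and the widest difference was that of Vldlr, a lipoprotein receptor. Differences are KO minus L/L on the log2 scale throughout, where 1 is a doubling. The median difference of the 33 genes was 0.12, 0.06 and 0.10 on days 2, 3 and 5, against 0.01, -0.01 and 0.02 over all 13042 genes. The 18 genes other than synthetases had medians of 0.17, 0.17 and 0.15, and the 15 synthetases 0.11, 0.04 and 0.06. With each array centred on its median, the day 5 medians were 0.02 for the 33 genes, 0.08 for the 18 and -0.01 for the 15 synthetases, so the last turned direction. Centring shifts all genes of an array alike, so these values are not to be set against the uncentred 0.02 of all genes. The gap between each list and all genes is unchanged by it. On all 3 days 19 of the 33 were higher in KO, where 22.1% of all genes were, and 3 were lower, where 17.4% were. All 3 KO arrays lay above all 3 L/L arrays for 10 of the 33 genes, against 7.48% of all genes. They lay below for 1 gene, Aldh18a1, against 5.66% of all genes.

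No single gene of the set passed the test over the 3 days. In limma, with day as a factor and Benjamini-Hochberg adjustment at 0.05 over all 13042 genes, 0.023% of all genes were called higher, 3 genes in number, and none of these belonged to the set. At an unadjusted p under 0.05, 10 of the 33 were higher and 1 was lower, against 7.68% and 4.61% of all genes. The adjusted p-values of the 33 ran from 0.335 to 0.933. A second test asked whether the KO minus L/L difference changed in a straight line with day. It called 0.644% of all genes growing and 0.583% declining, and in the set it called 1, Vldlr, as growing and none as declining. At an unadjusted p under 0.05, 4 genes of the set were growing and 3 declining, against 10.6% and 7.87% of all genes.

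**Figure D1:**
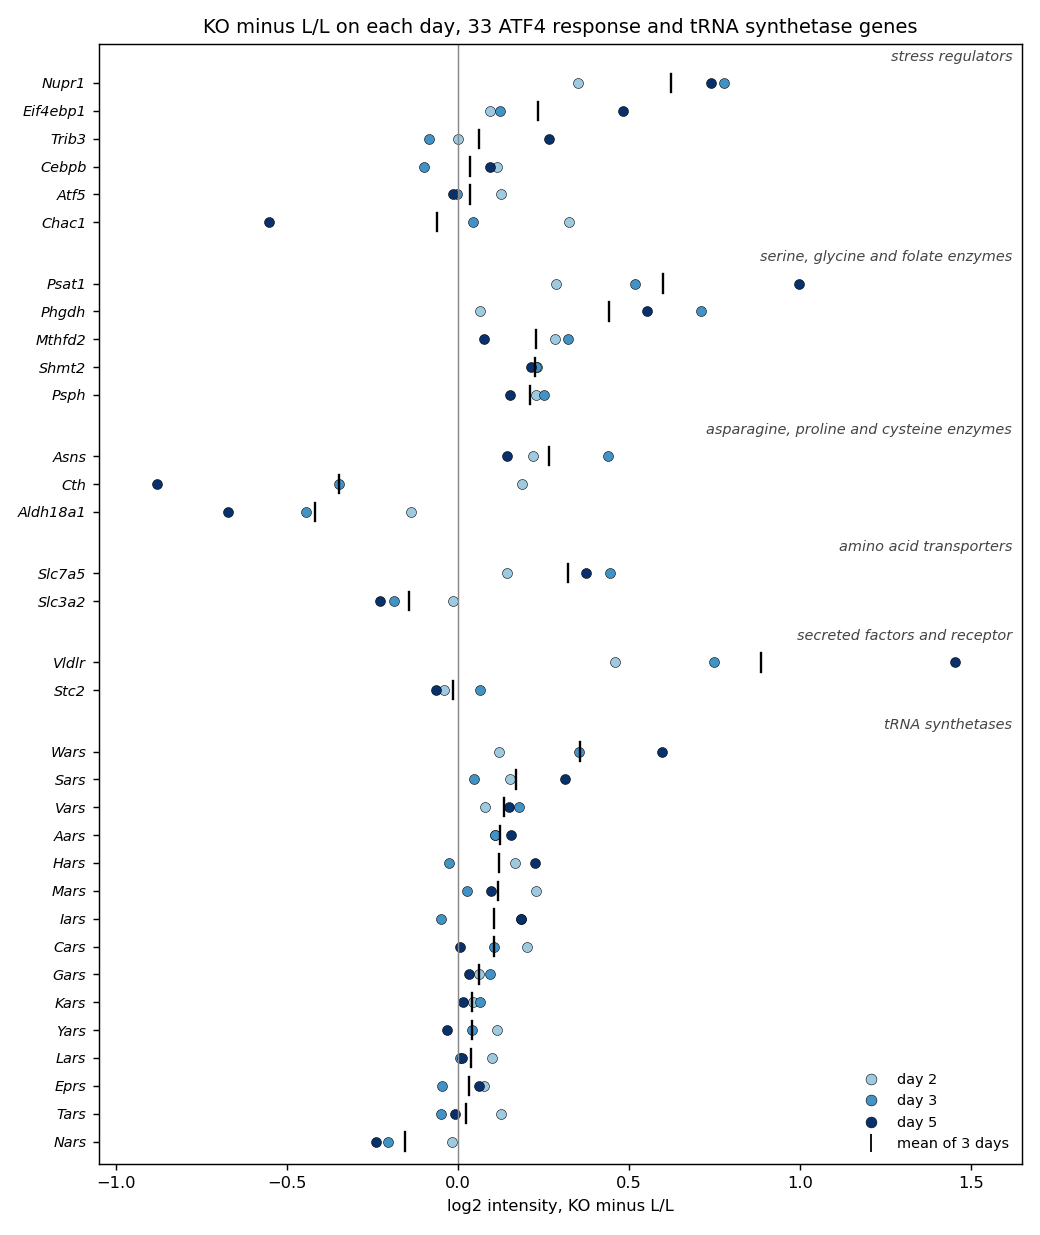
KO minus L/L difference in log2 intensity of the 33 tested genes on days 2, 3 and 5 of the tamoxifen schedule, 1 point per gene and day and a bar at the mean of the 3 days, with genes grouped by role. The points spread from -0.88 for Cth to 1.45 for Vldlr, both on day 5, while 14 of the 15 synthetases stay at or below 0.31 on that day.

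The widest differences were seen after day 2. On day 2 none of the 33 genes differed by 1.5-fold or more, where 0.429% of all genes were that much higher and 0.107% that much lower. On day 3, 3 genes were at least 1.5-fold higher, Nupr1, Phgdh and Vldlr, and none were that much lower, against 1.1% and 0.506% of all genes. On day 5, 4 genes were at least 1.5-fold higher, Vldlr, Psat1, Nupr1 and Wars, and 2 were that much lower, Cth and Aldh18a1, against 5.19% and 3.1% of all genes. These are differences between 2 pools on each day and have no test. The median absolute difference between KO and L/L was 0.11 on day 3 and 0.18 on day 5 for the 33 genes, and 0.10 and 0.16 for all genes. Between L/L pools, which share the genotype, it was 0.11 from day 2 to day 3 and 0.09 from day 2 to day 5 for the 33 genes, and 0.12 and 0.14 for all genes.

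Vldlr encodes the very low density lipoprotein receptor, a lipoprotein and reelin receptor whose gene is an ATF4 target. Its intensity was 71.5, 84.8 and 176 in KO intestine on days 2, 3 and 5, against 52.0, 50.5 and 64.5 in L/L intestine. All KO arrays were above all L/L arrays, and the KO pool of day 5 was the highest by far. The difference was 0.46, 0.75 and 1.45, with a mean of 0.89 (SD 0.51 over 3 days, 95% interval 0.39 to 1.39, limma adjusted p = 0.381). It grew by 0.33 per day (SE 0.05, limma adjusted p = 0.0454), the only change with day in the set that passed the test. The probe set is a dim one with the suffix _x_at, a kind that can bind several transcripts. The other Vldlr probe sets above the filter, with mean intensities of 40.5 and 40.1, differed by 0.27, 0.29 and 1.01, and by -0.20, 0.07 and 0.35, and in each the highest difference was that of day 5. With probe sets of the suffixes _x_at and _s_at left out, the growth was 0.26 per day with a limma adjusted p of 0.0934.

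Stc2, a secreted glycoprotein, and Fgf21, a hormone of the fasting response, were the other secreted products on the list. Stc2 had a mean difference of -0.01, and its 3 probe sets above the filter disagreed, from -0.01 to 0.43. Fgf21 stood at 33.6, 21.7 and 21.8 in KO and 28.1, 23.8 and 29.8 in L/L intestine, below the filter throughout.

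The enzymes that make serine and glycine and pass their carbon to folate were all higher in KO intestine on every day, 5 of 5. Their median difference was 0.23, 0.32 and 0.21 on days 2, 3 and 5. None was called, with limma adjusted p-values of 0.381 to 0.393. All 5 had an unadjusted p under 0.05, against 7.68% of all genes, and being higher on all days was seen in 22.1% of all genes. Psat1, the transaminase of serine synthesis, had intensities of 209, 256 and 314 in KO, against 171, 179 and 157 in L/L intestine. The KO arrays lay above all L/L arrays and the gap was widest on day 5. Its difference was 0.29, 0.52 and 1.00, a mean of 0.60 (SD 0.36, limma adjusted p = 0.381), and it changed by 0.24 per day (SE 0.05, adjusted p = 0.0841). A dimmer probe set of Psat1 gave 0.53, 0.52 and 1.27.

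Phgdh catalyses the first and committed step of serine synthesis. Its intensity was 432, 576 and 448 in KO and 413, 352 and 305 in L/L intestine. The groups did not overlap, but on day 2 they were close, with a difference of 0.06, followed by 0.71 and 0.55. The mean was 0.44 (SD 0.34, limma adjusted p = 0.381). This value depended on the probe set, since 3 probe sets were almost equally bright, with mean intensities of 413, 411 and 410. The next of them read 443, 622 and 661 in KO and 295, 285 and 315 in L/L intestine, a mean difference of 0.93. The one after it gave a mean of 0.77, while the fourth, at a mean intensity of 269, gave 0.11. All 4 have the suffix _x_at, so leaving out probe sets of the suffixes _x_at and _s_at leaves none for Phgdh. The probe sets used for Aldh18a1, Shmt2, Wars, Trib3, Aars, Iars and Sars have 1 of these suffixes too.

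Psph, which completes serine synthesis, had intensities of 122, 145 and 157 in KO and 104, 122 and 142 in L/L intestine. It was higher on each later day in both genotypes, so the groups overlapped although KO was higher within each day. The difference was 0.23, 0.25 and 0.15, a mean of 0.21 (SD 0.05, limma adjusted p = 0.381). Shmt2 is the mitochondrial enzyme that splits serine into glycine and a one-carbon unit, and it read 235, 280 and 247 in KO and 200.2, 239 and 213 in L/L intestine. Its difference was the steadiest of the set, at 0.23, 0.23 and 0.21 (mean 0.22, SD 0.01, limma adjusted p = 0.381), although its other probe sets above the filter gave means of 0.33 and 0.03. Mthfd2, the mitochondrial folate dehydrogenase, stood at 227, 224 and 217 in KO and 186, 179 and 206 in L/L intestine. The KO arrays were all higher, with differences of 0.28, 0.32 and 0.08 and a mean of 0.23 (SD 0.13, limma adjusted p = 0.393).

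**Figure D2:**
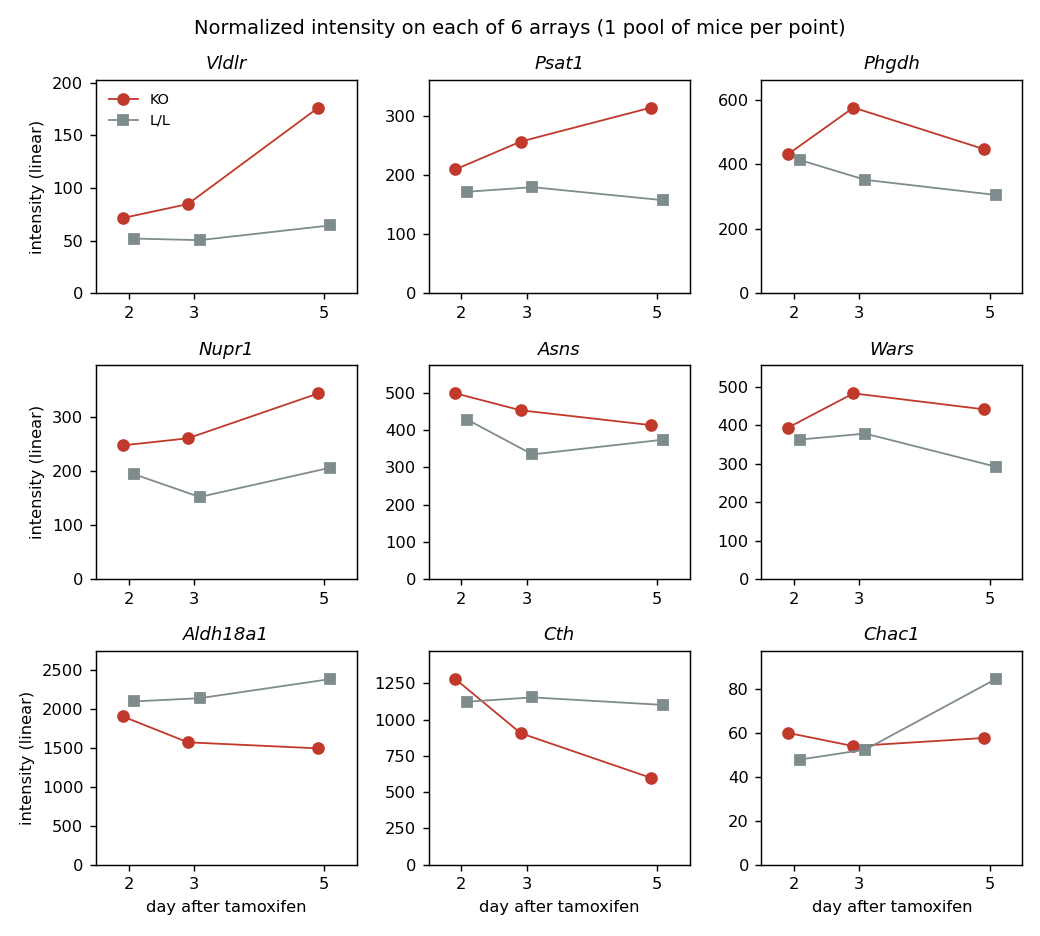
Intensity on each of the 6 arrays, on a linear axis from 0, for 9 named genes of the set against the day the intestine was taken, with 1 point per pool of mice, KO left of L/L. Vldlr reaches 176 in the KO pool of day 5 against 64.5 in the L/L pool, while Cth is at 598 in KO against 1101 in L/L on that day.

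The enzymes of asparagine, proline and cysteine differed in direction. Asns, asparagine synthetase and a classic ATF4 target, read 499, 453 and 413 in KO and 428, 335 and 374 in L/L intestine. KO was higher within each day but the groups overlapped, since the L/L pool of day 2 was above the KO pool of day 5. The difference was 0.22, 0.44 and 0.14, a mean of 0.27 (SD 0.15, limma adjusted p = 0.381). A second Asns probe set, at a mean intensity of 334, gave 0.13, 0.01 and 0.18, a mean of 0.10, without the higher value of day 3.

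Aldh18a1 makes pyrroline-5-carboxylate from glutamate, the entry to proline and, in enterocytes, to citrulline. It was bright, at 1908, 1574 and 1496 in KO and 2101, 2141 and 2387 in L/L intestine. Every KO array was below every L/L array. The difference was -0.14, -0.44 and -0.67, a mean of -0.42 (SD 0.27, limma adjusted p = 0.381), and it changed by -0.17 per day (SE 0.05, adjusted p = 0.162). All 5 of its probe sets had a negative mean, from -0.73 to -0.13.

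Cth, cystathionine gamma-lyase, makes cysteine from the methionine-derived intermediate cystathionine. It had intensities of 1279, 906 and 598 in KO, against 1123, 1153 and 1101 in L/L intestine. The L/L pools were nearly level, and the KO pools ranged from above them on day 2 to well below them on day 5. The difference was 0.19, -0.35 and -0.88, a mean of -0.35 (SD 0.53, limma adjusted p = 0.48). Its change with day was -0.34 (SE 0.05), with a limma adjusted p of 0.0548 that falls just short of the threshold.

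The transporters on the list were Slc7a5, Slc3a2 and Slc7a11. Slc7a5 (LAT1), which exchanges large neutral amino acids, read 195, 223 and 236 in KO and 177, 164 and 183 in L/L intestine. All KO arrays were higher, with differences of 0.14, 0.45 and 0.37 and a mean of 0.32 (SD 0.16, limma adjusted p = 0.381). Its heavy chain Slc3a2 (CD98) was bright and lower on later days in both genotypes, at 4083, 3419 and 2482 in KO and 4124, 3896 and 2906 in L/L intestine. The mean difference was -0.14 (limma adjusted p = 0.436). Slc7a11, the cystine carrier, was below the filter at 11.8, 14.4 and 13.0 in KO and 13.4, 10.4 and 11.9 in L/L intestine.

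Of the 6 stress regulators, Nupr1 stood apart. Nupr1 is a small chromatin-associated protein made under many stresses, and its probe set read 248, 261 and 344 in KO and 194, 152 and 206 in L/L intestine. The groups did not overlap. The difference was 0.35, 0.78 and 0.74, a mean of 0.62 (SD 0.24), and its limma adjusted p of 0.335 was the lowest of the set. A second probe set gave the same direction with a mean of 0.32. Eif4ebp1 encodes 4E-BP1, a repressor of cap-dependent translation, and stood at 712, 713 and 841 in KO and 667, 655 and 603 in L/L intestine. The KO arrays were all higher, most on day 5, with differences of 0.09, 0.12 and 0.48 (mean 0.23, SD 0.22, limma adjusted p = 0.41), and a dim probe set of the gene had a mean of -0.10.

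Chac1, which breaks down glutathione and is among the strongest ATF4 targets in cultured cells, was dim and was lower in KO on day 5. It read 60, 54.0 and 57.7 in KO and 47.9, 52.4 and 84.5 in L/L intestine. The KO pools were nearly level, and the highest value was the L/L pool of day 5. The difference was 0.33, 0.04 and -0.55, a mean of -0.06 (SD 0.45, limma adjusted p = 0.889), with a change of -0.29 per day (SE 0.05, adjusted p = 0.0548). Trib3, a pseudokinase that feeds back on ATF4, had a mean difference of 0.06 (limma adjusted p = 0.769), reaching 0.27 on day 5. The transcription factors Cebpb and Atf5 had a mean difference of 0.04 each.

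**Figure D3:**
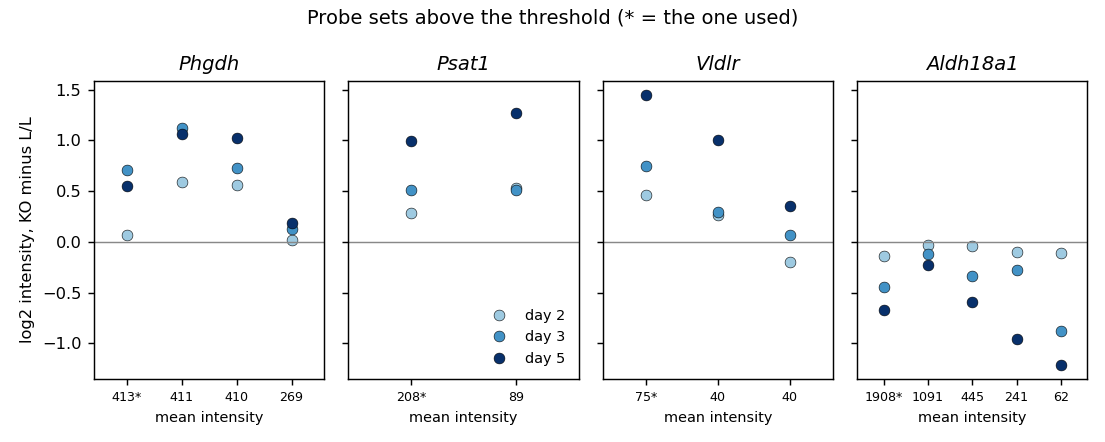
KO minus L/L difference in log2 intensity on days 2, 3 and 5 for every probe set above the filter of Phgdh, Psat1, Vldlr and Aldh18a1, with the mean intensity of each probe set on the x axis and an asterisk on the one used. All 5 probe sets of Aldh18a1 have a negative mean, and those of Phgdh have means from 0.11 to 0.93.

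Aminoacyl-tRNA synthetases join each amino acid to its tRNA, and most are named by the letter of the amino acid. The 15 on the list were expressed at mean intensities of 161 (Cars) to 3032 (Nars), values that cannot be ranked between genes because probes differ. Their differences ran from -0.02 to 0.23 on day 2, from -0.21 to 0.35 on day 3 and from -0.24 to 0.59 on day 5. On all 3 days 9 of the 15 were higher and 1, Nars, was lower, against 22.1% and 17.4% of all genes. None was called over the 3 days or with day. At an unadjusted p under 0.05, 1 of the 15, Wars, was higher over the days and growing with day, a share near the 7.68% and 10.6% of all genes.

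Wars, the tryptophan enzyme, is also known as an interferon-induced gene. It had intensities of 393, 482 and 441 in KO, against 362, 378 and 292 in L/L intestine. The KO arrays lay above all L/L arrays, and the L/L pool of day 5 was the lowest. The difference was 0.12, 0.35 and 0.59, a mean of 0.36 (SD 0.24, limma adjusted p = 0.381), with a change of 0.15 per day (SE 0.05, adjusted p = 0.176). All 4 probe sets of Wars were higher, with means of 0.17 to 0.36.

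Without Wars the other 14 synthetases had mean differences of -0.15 to 0.17 and medians of 0.11, 0.03 and 0.05 on days 2, 3 and 5. Sars, the serine enzyme, was highest among them at 685, 735 and 762 in KO and 617, 712 and 614 in L/L intestine. Its groups overlapped, and its difference was 0.15, 0.05 and 0.31 (mean 0.17, SD 0.13, limma adjusted p = 0.417). Aars and Lars, for alanine and leucine, were the other 2 synthetases whose KO arrays lay above all L/L arrays, with mean differences of 0.12 and 0.04. This separation was thus seen in 3 of the 15, against 7.48% of all genes. For Lars it was very slight, with 456.6 on the lowest KO array and 455.7 on the highest L/L array. Nars, for asparagine, read 3130, 2885 and 2629 in KO and 3165, 3329 and 3107 in L/L intestine, a mean of -0.15 (SD 0.12, limma adjusted p = 0.424). A second Nars probe set had a mean of -0.05 but was slightly higher in KO on day 2, by 0.02.

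The remaining mean differences were 0.14 for Vars, 0.12 for Hars, 0.12 for Mars, 0.11 for Iars and 0.10 for Cars. Gars and Kars, whose genes supply the cytosol and the mitochondria alike, had means of 0.06 and 0.04. Yars had a mean of 0.04, Eprs of 0.03 and Tars of 0.02. Probe sets above the filter disagreed in direction for Cars, with means of -0.05 to 0.10, and for Eprs, with means of -0.10 to 0.13. Cars was lower on later days in both genotypes, at 203, 174 and 131 in KO and 176, 162 and 131 in L/L intestine, so its day difference exceeded its genotype difference.

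The 7 other cytosolic synthetase genes and complex proteins that were tested, of 8 listed, had medians of 0.05, -0.01 and 0.11. Of these 1 was higher and 1 lower on all days, against 22.1% and 17.4% of all genes. None was called, with 1 higher at an unadjusted p under 0.05, against 7.68%. Farsa, the catalytic phenylalanine subunit, read 192, 225 and 198 in KO and 202, 197 and 122 in L/L intestine, with differences of -0.07, 0.20 and 0.69 (mean 0.27, limma adjusted p = 0.468). Eef1e1, a scaffold protein of the multisynthetase complex, had a mean of 0.22 (limma adjusted p = 0.381), Qars -0.13 and Farsb 0.10.

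Of 17 mitochondrial synthetases listed, 15 were tested, with medians of -0.02, -0.04 and -0.11 on days 2, 3 and 5. On all 3 days 1 was higher and 4 were lower, against 22.1% and 17.4% of all genes. None was called, with 1 lower at an unadjusted p under 0.05, against 4.61%. Ears2, for glutamate, had the largest mean difference at -0.30 (limma adjusted p = 0.381), followed by Fars2 at -0.22, Lars2 at -0.20 and Sars2 at 0.14.

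**Figure D4:**
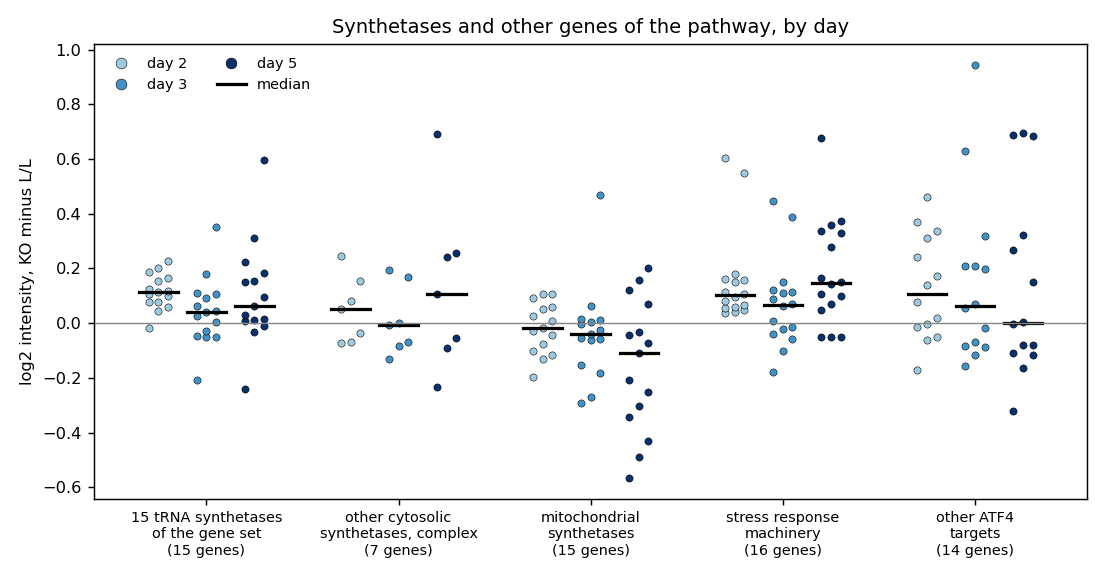
KO minus L/L difference in log2 intensity on days 2, 3 and 5, 1 point per gene with the median of each list, for the 15 synthetases of the set, other cytosolic synthetases, mitochondrial synthetases, the integrated stress response machinery and other ATF4 targets. The median of the mitochondrial synthetases is -0.11 on day 5 and that of the stress response machinery 0.15.

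Of the upstream pathway, the Atf4 messenger was bright, at a mean intensity of 2382, and its difference was 0.05, -0.01 and -0.05 (mean -0.004, limma adjusted p = 0.977). Of 17 genes of the integrated stress response machinery 16 were tested, with medians of 0.10, 0.07 and 0.15. On day 2 all 16 were higher in KO, by 0.04 to 0.60, where 7239 of all 13042 genes were higher. That day compares 1 pool of each genotype and has no test. On all 3 days 10 were higher and none were lower, against 22.1% and 17.4% of all genes, and none was called, with 3 higher at an unadjusted p under 0.05, against 7.68%. Eif2ak2 (PKR), the kinase that senses double-stranded RNA and is itself interferon-induced, read 398, 460.3 and 521 in KO and 262, 352 and 402 in L/L intestine. Its groups overlapped and its mean difference was 0.45 (SD 0.13, limma adjusted p = 0.335). Eif2ak4 (GCN2), the amino acid sensor, was dim, at 49.7, 53.3 and 51.5 in KO and 33.9, 49.3 and 32.2 in L/L intestine, with a mean of 0.45 (SD 0.30, limma adjusted p = 0.381). Eif2b3 and Eif2b1, subunits of the exchange factor that phosphorylated eIF2 blocks, had means of 0.29 (limma adjusted p = 0.381) and 0.19 (0.409). Ddit3 (CHOP), a transcription factor downstream of ATF4, had a mean of 0.17 (limma adjusted p = 0.417).

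Other ATF4 targets, 14 tested of 16 listed, had medians of 0.11, 0.06 and 0.00 on days 2, 3 and 5. Of these 6 were higher and 4 lower on all days, against 22.1% and 17.4% of all genes. None was called, with 4 higher at an unadjusted p under 0.05, against 7.68%. Ddit4 (REDD1), an mTORC1 inhibitor, read 736, 935 and 845 in KO and 582, 486 and 524 in L/L intestine. The groups did not overlap, and the difference was 0.34, 0.94 and 0.69 (mean 0.66, SD 0.30, limma adjusted p = 0.363). Mthfd1l, a mitochondrial folate enzyme that acts beside Mthfd2, had a mean of 0.41 (SD 0.24, limma adjusted p = 0.381). Slc1a4, a serine and alanine transporter, had a mean of 0.35 (limma adjusted p = 0.399), and Sesn2, a leucine sensor upstream of mTORC1, one of 0.34 (SD 0.03, limma adjusted p = 0.341).

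The 10 tested genes with a match had a median mean difference of 0.08, from -0.06 to 0.89, and 5 of them were higher on all days. The 14 tested genes with a window and no match had a median of 0.08, from -0.42 to 0.60, and 8 were higher on all days. The 9 tested genes with no window had a median of 0.12, from -0.35 to 0.36, and 6 were higher on all days. Of all genes 22.1% were higher on all days. Psat1, Phgdh, Shmt2, Psph and Mthfd2 were all among those with no match.

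Markers of several other cell types differed in the same pools. Of all genes, 22.1% were higher in KO on all 3 days and 17.4% were lower, which the counts below are to be read against. All 4 Paneth markers were higher in KO on every day, with a median of 1.03 on day 5 and a summed intensity of 27318 to 38950 in KO and 22531 to 24017 in L/L intestine. Of 7 goblet markers 5 were higher on every day, with a median of 0.28 on day 3 and a sum of 79895 to 83619 in KO and 71662 to 79328 in L/L. Of 7 enteroendocrine markers 3 were higher on every day, and their sum was 5645 to 6985 in KO and 3521 to 5594 in L/L. Of 7 myeloid markers 4 were higher on every day, with a sum of 3087 to 4628 in KO and 2177 to 2879 in L/L, and of 5 endothelial markers 5, with a sum of 1317 to 1648 in KO and 1064 to 1191 in L/L. The 5 crypt proliferation markers had a median of -0.68 on day 5, with a sum of 3292 to 8400 in KO and 8029 to 8955 in L/L, and 1 of them was lower on every day. Fibroblast and smooth muscle markers had day 5 medians of 0.43 and 0.27, and adipocyte markers 0.58. T cell, plasma and B cell, and pancreatic acinar markers had medians of 0.02, -0.23 and 0.40 on day 3. On day 5 these were -0.17, -0.002 and -0.03. No marker was listed at 0. Alb and Fgb of the hepatocyte list lay below the filter, as did Cela2a, Cpb1 and Ptf1a (acinar), Cd2 (T cell) and Lep (adipocyte). The acinar medians rest on 6 of 12 listed genes and the adipocyte median on 3 of 5. The part of the cell type markers in the differences of the ATF4 and synthetase genes was not tested.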

How the data were processed

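Pooled intestinal RNA was measured on 6 arrays, and the authors deposited 1 intensity for each probe set and array. Partek and RMA are named in the submitters' processing notes, without versions. The deposited intensities ran from 3.82 to 31146, a linear scale, so log2 was taken with no pseudocount and no further normalization. Of 45101 probe sets, 64 were controls, 34945 had 1 gene in the platform annotation, 932 had several and 9160 were unlisted, and symbols of 34741 were updated through the gene ID to assembly GRCm38.p6. Mars was found as Mars1. Each gene took its brightest probe set by mean log2 intensity, kept above the 40th percentile (log2 5.28).

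Differences over 3 days were tested with limma 3.58.1 in R 4.3.3 (two-sided, day as a factor, residual degrees of freedom 2, prior 3.03), and their change with day as genotype by centred day (residual 1, prior 4.76). Adjusted p-values are Benjamini-Hochberg over 13042 genes. P-values measure only how the difference varied between days, not between mice. Both fits were run on simulated data with changes larger than any in the set, so this does not show how well smaller changes are found. SD is over the 3 differences and SE from the fit. Named genes were the 14 with the largest absolute mean, the 6 with the largest absolute change with day and, of each other pathway list, up to 4 with the largest absolute mean plus Atf4 and Ddit3. The genes and lists were chosen with earlier results of these data known. Alternatives covered the choice of probe set, filter, offset, centring, loess, eBayes settings, day terms and leaving out each day.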

Additional observations from a re-analysis of the deposited data

Results flagged for a closer look

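Vldlr was the 1 gene of the set whose KO minus L/L difference was found by a test to differ between days, growing by 0.33 per day on the log2 scale (limma adjusted p = 0.0454). The difference was higher in KO on 3 of 3 days, at 0.46, 0.75 and 1.45. The test has 1 residual degree of freedom and rests on 6 pools.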

How the results depend on the processing

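For the genes of the set named by mean difference or by change with day, no direction of that value was reversed under the alternatives run. The mean difference of Chac1 and the values of genes named from the other lists were not followed under the alternatives. Some of these, as for Chac1 and Sars2, differed in direction between days, so their means can depend on the days used. The day 5 median of the synthetases was 0.06, and -0.01 with median centring, which shifts all genes of an array alike. The number of genes of the set called over the 3 days was 0 under every alternative. For all genes that number was 3, and it was 1 with the mean of all probe sets, 1 without day 2, 0 without day 3 and 6 with a linear day term. All genes called for a change with day numbered 160, but 0 with no filter or with a linear day term, 63 with the rank of day, 275 with a filter at the 60th percentile, 549 with an offset of 32 and 531 with the trend setting. In the set the count was 1, with 0 for no filter or a linear day term, 2 for the mean of all probe sets, for probe sets without _x_at and _s_at, for the 60th percentile or for median centring, 3 with dim values raised to the threshold or cyclic loess, and 4 with the offset or trend. The change with day of Vldlr missed the threshold without _x_at and _s_at probe sets (adjusted p = 0.0934), with no filter (0.169), with a linear day term (0.265) and with the rank of day (0.069), and the gene was not among those tested with the mean of all probe sets or the 60th percentile filter. Cth passed it in 9 alternatives, with limma adjusted p-values of 0.0133 to 0.0497, Chac1 in 6 and Psat1 in 3. Genes of the set higher on each day used numbered 19, and from 15 with median centring to 23 without day 3. Genes lower on each day used numbered 3, and 6 without day 2. KO arrays lay wholly above L/L arrays for 10 genes, and for 16 without day 2, day 3 or day 5, where fewer arrays make separation easier. They lay wholly below for 1 gene, and for 0 without _x_at and _s_at probe sets, 2 with median centring, 3 without day 2, 2 without day 3 and 2 without day 5. Genes at 1.5-fold on day 3 numbered 3, and 1 with the mean of all probe sets or without _x_at and _s_at. KO and L/L pools were compared within day in each main fit, and no replicate numbers exist to pair further. For counts that moved otherwise, the cause was not tested. A mean intensity near 38.9, as for Eif2ak4 and the dimmer Vldlr probe sets, limits what a difference shows.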
